A study of Rattus norvegicus with 55 samples.

Results

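Genes of oxygen transport and iron supply were followed in rat kidney: the beta globin genes Hbb, Hbb-b1 and Hbe1, the haem synthesis gene Alas2 and the transferrin receptor gene Tfrc. Their probe sets were found by the gene symbols of the array's annotation. They are 5 of the 4736 genes that a probe set named alone. Among 8799 probe sets, 5 carried 1 of these symbols alone, 1 probe set for each gene. A further 2 probe sets carried a member together with other symbols and were kept apart. All 5 passed the filter on low values, under which 6555 probe sets were tested.

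Kidney total RNA was measured on 55 1-colour Affymetrix arrays. Every sample is titled SHR kidney, the abbreviation used for spontaneously hypertensive rats, while the descriptions speak of Wistar-derived animals throughout. The stage word in the description is immature on 13 arrays, young on 14 and mature on 14, and 14 arrays have no stage word and form a separate group. No allele, treatment, age or sex is given for any group, and whether a group's arrays stand for different animals is not stated. P-values therefore reflect only sample-to-sample spread, part of which may be technical. The descriptions set up a comparison of the members across stages.

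Red blood cells carry oxygen on haemoglobin, a protein of alpha-type and beta-type globin chains that each hold a haem. Haem is built from glycine and succinyl-CoA in a chain of enzymatic steps, of which Alas2 catalyses the first in red cell precursors, and Tfrc brings in the iron by binding transferrin at the cell surface. A whole kidney holds blood in its vessels, and maturing red cells that have left the bone marrow still carry some globin RNA.

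The sequence upstream of the adult-type beta globin genes is shown because Hbb and Hbb-b1 were the members that moved together. Both genes lie on the minus strand of chromosome 1 in the rat build GRCr8, and the bases are those of RefSeq. Capitals mark 4 kinds of motif that were searched: CACACCC on either strand, the word CCAAT on either strand, which reads ATTGG on the other one, the word ATAAA on the gene's strand, and GATA words on either strand. The GATA words were AGATAA with its variant AGATAG, then TGATAA with its variant TGATAG. On the other strand the last of these reads CTATCA. The Hbb window is chr1:167663722-167663971 and ends at the base before the gene model. The Hbb-b1 window is chr1:167643578-167643770, from which the 57 bases nearest the start were left out because they lie inside the gene model.
Hbb: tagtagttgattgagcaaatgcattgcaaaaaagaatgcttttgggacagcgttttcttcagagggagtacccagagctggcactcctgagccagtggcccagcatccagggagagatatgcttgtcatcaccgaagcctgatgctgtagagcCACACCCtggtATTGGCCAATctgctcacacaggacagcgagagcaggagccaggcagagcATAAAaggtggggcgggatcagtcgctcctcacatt
Hbb-b1: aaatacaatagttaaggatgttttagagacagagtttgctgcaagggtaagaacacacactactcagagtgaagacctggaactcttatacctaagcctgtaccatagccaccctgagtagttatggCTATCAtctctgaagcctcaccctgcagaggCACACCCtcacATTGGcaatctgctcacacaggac

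Both windows hold CACACCC followed closely by a CCAAT-type word. In Hbb, CACACCC lies 97 to 91 bases upstream of the start and the words ATTGG and CCAAT 86 to 82 and 81 to 77 bases upstream. In Hbb-b1, CACACCC lies 92 to 86 bases upstream, ATTGG 81 to 77, and ATAAA 29 to 25 bases upstream in the part that is not printed. Hbe1, the embryonic beta-type gene, had no CACACCC in its 250 bases, but CCAAT 83 to 79 and ATAAA 28 to 24 bases upstream and a GATA word at 2 places. Its window lies inside a longer gene model and is not printed. Over 33465 rat promoter windows of 250 bases, 6.1% held CACACCC, 34.0% CCAAT, 25.2% ATAAA on the gene's strand and 27.0% a GATA word. The full windows of Hbb and Hbb-b1 were identical at 60.9% of their aligned columns, against 53.1% for Hbb and Hbe1 and 54.8% for Hbb-b1 and Hbe1. Alas2 had a GATA word 136 to 131 bases upstream, and Tfrc CCAAT 153 to 149 bases upstream. In Hbe1 a further ATAAA, 157 to 153 bases upstream, shares a base with a GATA word. A match is a description of letters and not a site of binding.

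The gene models in GRCr8 lie at chr1:167662310-167663721 for Hbb, chr1:167636064-167643577 for Hbb-b1 and chr1:167694820-167872091 for Hbe1. Alas2 lies at chrX:22890650-22914046 and Tfrc at chr11:81668478-81690318. The probe sets of Hbb (M94918mRNA_f_at) and Hbb-b1 (M94919mRNA_f_at) have the suffix that Affymetrix gives to probes shared within a gene family, so the 2 genes cannot be told apart with certainty. The mean level of the Hbb probe set stood at the 98.11 percentile of all probe sets, Hbb-b1 (94.57) and Alas2 (79.68, probe set D86297_at) lay in the upper part, and Tfrc (41.03, M58040_at) and Hbe1 (32.44, X56326cds_at) in the lower part. These percentiles describe brightness on the array, and no probe set's level is set against another's.

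By their control probe sets the arrays formed 3 technical sets. The labels name no such set, and the word batch is used for them here. The 10 arrays of batch 1 were 6 immature and 4 mature, the 19 of batch 2 were 7 immature, 6 young and 6 lacking a stage word, and the 26 of batch 3 were 8 young, 8 lacking a stage word and 10 mature. Mature replicates 1 and 9, both in batch 3, had a GAPDH 3'/5' ratio of 7.18 and 3.47, a sign of degraded RNA. The next highest ratios were on mature replicates 12 (2.62) and 5 (1.45), both in batch 1. The highest in any other description was 1.22. RT1-Bb (X56596_at), a class II histocompatibility gene, lay between 1411.5 and 2381.2 on 12 arrays, 3 of each description, and between 80.1 and 263.0 on the other 43. The 12 arrays above the threshold of 600 belonged to batch 1 where they were immature or mature, and to batch 2 where they were young or had no stage word. Markers of kidney were present: Slc34a1, the phosphate transporter of the proximal tubule, had a median intensity of 16467, Umod, made in the thick ascending limb, 11446, and Aqp2, the water channel of the collecting duct, 2086.

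Hbb was highest in immature kidney. Its intensity on the 13 immature arrays was 6162.8 at the lowest, 7946.0 at the median and 13357.9 at the highest. Young arrays had 3704.9, 6377.1 and 8435.1, arrays without a stage word 3437.5, 5294.2 and 7963.1, and mature arrays 3465.6, 4812.35 and 7655.9. Every group overlapped its neighbours, and the 2 brightest arrays of all were immature replicates 2 and 4, at 13357.9 and 11944.4. On the log2 scale the group means were 13.01 ± 0.32 (SD, n = 13) in immature, 12.60 ± 0.34 (SD, n = 14) in young, 12.37 ± 0.39 (SD, n = 14) without a stage word and 12.25 ± 0.38 (SD, n = 14) in mature kidney.

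Between mature and immature kidney Hbb fell by 0.77 on the log2 scale, with a standard error of 0.14, which is 1.70-fold lower (limma, adjusted p = 4.668e-05). Young kidney was 1.33-fold lower than immature kidney (adjusted p = 0.03367), and kidney without a stage word 1.56-fold lower (adjusted p = 0.0004041). In the order of the 4 levels, young and the group without a stage word did not differ past the threshold (adjusted p = 0.7153), nor did that group and mature kidney (adjusted p = 0.7288). Mature and young kidney differed by -0.36 ± 0.14 (SE), which did not pass either (adjusted p = 0.1412). The call between young and immature kidney was lost without any 1 of immature replicates 2 and 4 and young replicates 4 and 13, with an adjusted p of up to 0.07049.

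Hbb-b1, the other adult-type beta globin gene, followed Hbb. Its intensity was 2538.5, 3389.4 and 5915.4 (lowest, median and highest) on immature arrays and 1672.9, 3111.3 and 4475.0 on young arrays. Arrays without a stage word had 1673.4, 2478.15 and 4216.4 and mature arrays 1678.9, 2303.25 and 3481.4. Again the groups overlapped while the medians went down from immature to mature. Hbb-b1 was 1.56-fold lower in mature than in immature kidney (log2 change -0.65 ± 0.14, adjusted p = 0.0006533) and 1.38-fold lower without a stage word than in immature kidney (adjusted p = 0.01305). The change of -0.28 ± 0.14 in young against immature kidney did not pass (adjusted p = 0.1778), and neither did -0.37 ± 0.14 in mature against young (adjusted p = 0.1396).

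These calls stand against a wide background. Of the 6555 probe sets, 28.5% differed somewhere among the 4 groups, as did Hbb (adjusted p = 0.0001269), Hbb-b1 (adjusted p = 0.002838) and Tfrc (adjusted p = 0.005905) in the moderated F test of limma. Between mature and immature kidney 24.4% of all probe sets were called, against 3 of the 5 members, Hbb, Hbb-b1 and Tfrc, all lower. The share was 18.7% for young against immature, where Hbb alone of the members passed, and 27.0% for arrays lacking a stage word against immature, where Hbb and Hbb-b1 passed. It was 1.80% for mature against young, where Tfrc passed. No member passed between arrays lacking a stage word and young arrays (0.229% of all probe sets) or in mature kidney against the group without a stage word (0.412%). At an unadjusted p under 0.05 Tfrc alone of the members passed between the group without a stage word and young (p = 0.03489), and no member did between mature kidney and that group.

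**Figure D1:**
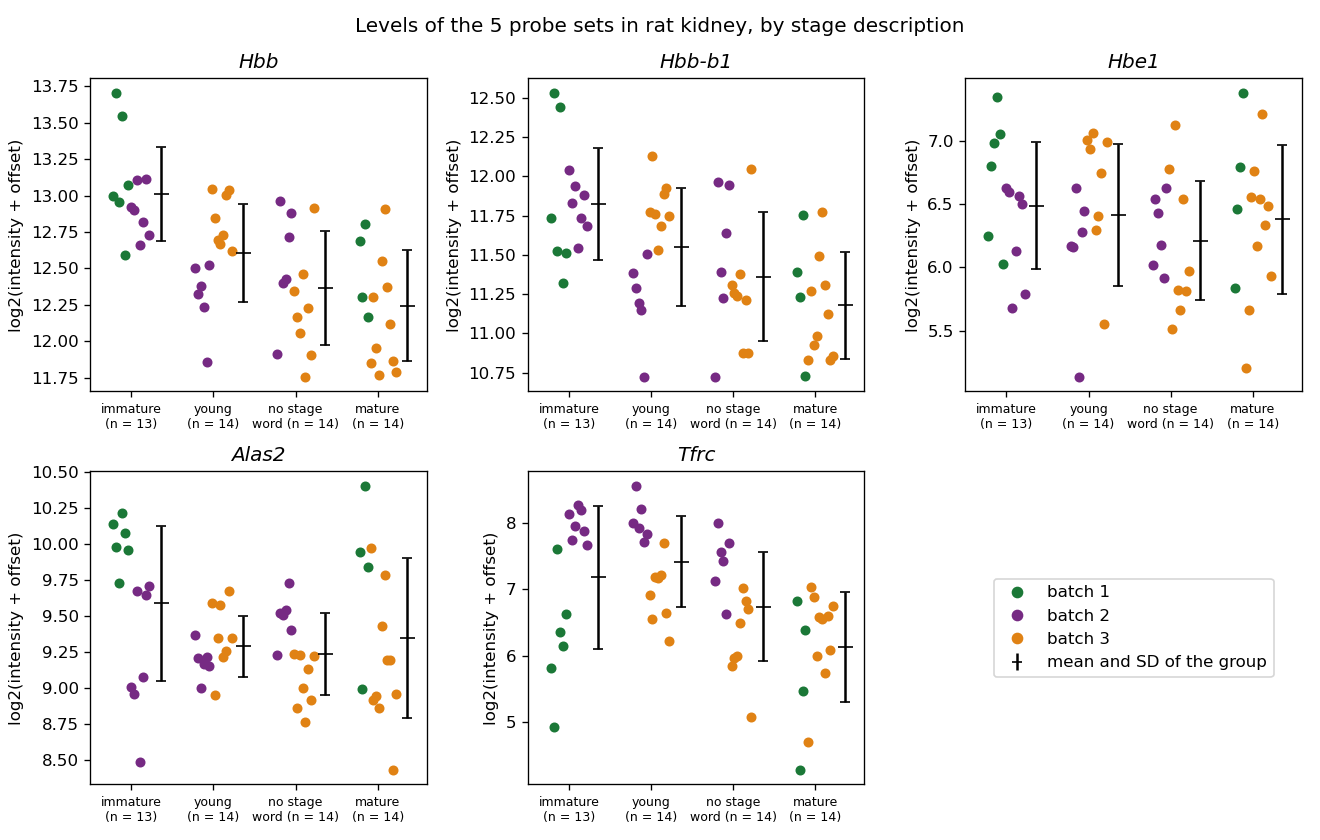
Each point is 1 array, coloured by batch, with log2(intensity + offset) on the vertical axis and the 4 stage descriptions on the horizontal axis; the bar gives the group mean and SD. Hbb and Hbb-b1 go down from immature to mature, Hbe1 shows no order, and the spread of Alas2 and Tfrc inside immature kidney follows the batch.

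Inside single batches, falls of the 2 beta globin genes were called between different stage words. Batch 2 holds no mature and batch 3 no immature arrays, so these falls do not place the change at a stage. In batch 2 Hbb read 6475.8 to 8866.4 on the 7 immature arrays and 3704.9 to 5873.3 on the 6 young arrays, with no overlap. There Hbb fell by 0.59 ± 0.15 (adjusted p = 0.005489) and Hbb-b1 by 0.60 ± 0.17 (adjusted p = 0.01225), among 29.3% of all probe sets called. A probe set named for 18S rRNA among others ranged from 13775 to 20470 on those 7 immature arrays and at most 1798 on the other 12 arrays of batch 2, and its part in this difference was not tested.

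In batch 3 the fall was called between young and mature kidney. On the 8 arrays there without a stage word, Hbb had a median of 4676.35, near that of mature kidney. Hbb read 6264.2 to 8435.1 with a median of 7057.2 on 8 young arrays, and 3465.6 to 7655.9 with a median of 4195.55 on 10 mature arrays. Hbb fell by 0.68 ± 0.16 (adjusted p = 0.04407) and Hbb-b1 by 0.67 ± 0.15 (adjusted p = 0.03276), where only 0.442% of all probe sets were called. Mature replicates 1 and 9, with the high GAPDH ratio, had Hbb at 3682.2 and 7655.9, near the lower and at the upper end of the mature arrays. Without them the adjusted p was 0.004055 for both genes.

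In batch 1 the 4 mature arrays had Hbb at 6577.4, 5044.3, 7150.4 and 4580.4, against 6162.8 to 13357.9 with a median of 8397.1 on the 6 immature arrays. The lower values, 5044.3 and 4580.4, were mature replicates 5 and 12, with GAPDH ratios of 1.45 and 2.62. Mature replicates 4 and 8, at 6577.4 and 7150.4, both had a ratio of 0.98. The part of RNA quality in this was not tested. The difference between mature and immature arrays there, -0.66 ± 0.24, was of similar size and did not pass (adjusted p = 0.2355), in a fit where 0.717% of all probe sets were called. Hbb-b1 differed by -0.57 ± 0.29 there (adjusted p = 0.4004). With batch as a block in the fit over all arrays, the fall between immature and mature kidney was 0.76 ± 0.16 for Hbb (adjusted p = 0.0005181) and 0.72 ± 0.17 for Hbb-b1 (adjusted p = 0.001864), with 12.6% of all probe sets called. Immature and mature arrays share batch 1 alone, so this fit also links the batches through young and no-stage-word arrays. It takes differences between descriptions as equal in every batch. For both genes, that of no-stage-word against young arrays differed between batches 2 and 3, as given below. The smaller step of Hbb from immature to young was -0.29 under the block (adjusted p = 0.2575).

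The young arrays of the 2 batches did not agree on a level. Hbb on the 6 young arrays of batch 2 (3704.9 to 5873.3) lay wholly below the 8 young arrays of batch 3 (6264.2 to 8435.1), and Hbb-b1 did as well (1672.9 to 2896.3 against 2941.5 to 4475.0). Tfrc lay apart in the opposite direction, at 195.1 to 362.6 in batch 2 and 58.9 to 191.7 in batch 3. So 3 of 5 members had young arrays that did not overlap between the batches, where 13.6% of all probe sets did.

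The group without a stage word showed the reverse order for Hbb. Its median was 6099.65 in batch 2 and 4676.35 in batch 3, with ranges that overlapped, as those of all 5 members did (12.9% of all probe sets had none). The difference between that group and young kidney was therefore 0.25 on the log2 scale in batch 2 and -0.60 in batch 3. The 2 differences differed by 0.85 ± 0.23 (interaction in limma, adjusted p = 0.02124). For Hbb-b1 they differed by 0.80 ± 0.25 (adjusted p = 0.04592) and for Alas2 by 0.63 ± 0.15 (adjusted p = 0.01162), while 7.08% of all probe sets passed this test. Tfrc, lower in the group without a stage word in both batches (-0.64 and -0.71), gave a difference of 0.07 ± 0.36 (adjusted p = 0.9291).

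**Figure D2:**
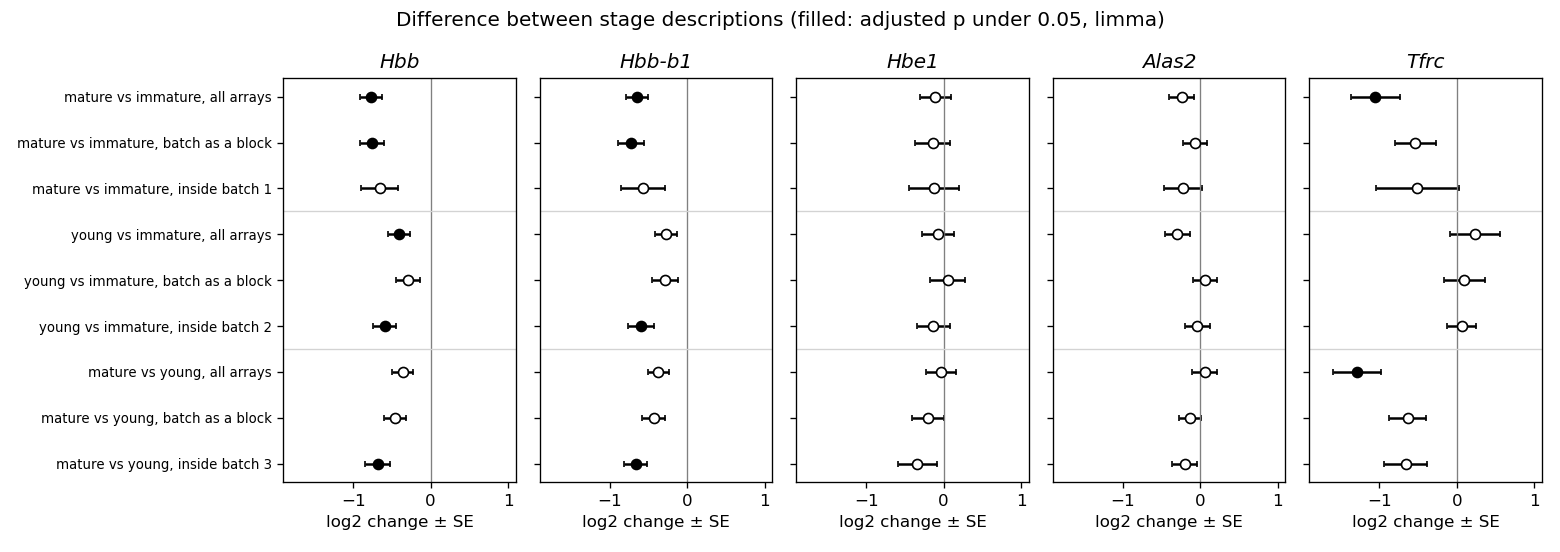
Log2 changes with standard errors of the 5 members in 3 comparisons, over all arrays, with batch as a block and inside the batch that holds both groups; filled points passed an adjusted p of 0.05 in limma. Hbb and Hbb-b1 lie left of 0 throughout, and Tfrc passed over all arrays only.

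The 2 beta globin probe sets tracked each other from array to array. Because the batches form clusters, correlations were taken inside each. Every batch still holds more than 1 description, and the permutations ran across them, so differences between descriptions are part of these values. Hbb and Hbb-b1 had Pearson's r = 0.950 and Spearman's rho = 0.891 in batch 1 (n = 10, permutation test, adjusted p = 0.0008 and 0.00855), and 0.886 for r without the 2 arrays farthest from the median of Hbb. In batch 2 r was 0.974 and rho 0.953 (n = 19), and in batch 3 r was 0.958 and rho 0.954 (n = 26), each with an adjusted p of 0.00015, which rests on the smallest p that the 100000 permutations can give, 1e-05. Without the 2 farthest arrays r was 0.950 and 0.961. The part of probes shared between the genes in this was not tested.

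Other globin probe sets gave a partly different account. The alpha globin probe set X56325mRNA_s_at, named for both Hba-a1 and Hba-a2, had medians of 8230.5 in immature, 9312.65 in young, 7525.65 without a stage word and 6612.95 in mature kidney. Its change of -0.35 ± 0.14 from immature to mature kidney did not pass (adjusted p = 0.06061). It fell by 0.47 ± 0.13 once mature replicates 1 and 9 were left out (adjusted p = 0.005614), where it read 10486.4 and 12779.5. Inside the batches it had r = 0.932, 0.728 and 0.846 with Hbb (n = 10, 19 and 26), given as a description of probe sets read on the same arrays.

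A probe set shared by 4 beta globin symbols, rc_AI179576_s_at (Hbb, Hbb-b1, Hbb-bs and Hbbl1), did not follow the stages. Its medians were 8747.7, 9902.55, 9314.4 and 9200.05 in immature, young, no-stage-word and mature kidney, and its change from immature to mature was 0.06 ± 0.14 (adjusted p = 0.7895). It read 18820.3 and 19895.3 on mature replicates 1 and 9, its 2 highest values on any array, and without them the change was -0.11 ± 0.12 (adjusted p = 0.5509). With batch as a block the change was -0.20 ± 0.14 (adjusted p = 0.3619). Its correlation with Hbb was 0.823, 0.481 and 0.546 in batches 1, 2 and 3. The probe sets annotated to beta globin thus did not all show the same fall.

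The second mixed probe set, rc_AI176460_s_at, carries 10 symbols that include ribosomal RNA genes beside Hbb. Its medians ran from 11.85 on immature arrays of batch 1 to 2330.25 on arrays without a stage word in batch 2, a range no single-symbol globin probe set had. It is given no gene name.

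**Figure D3:**
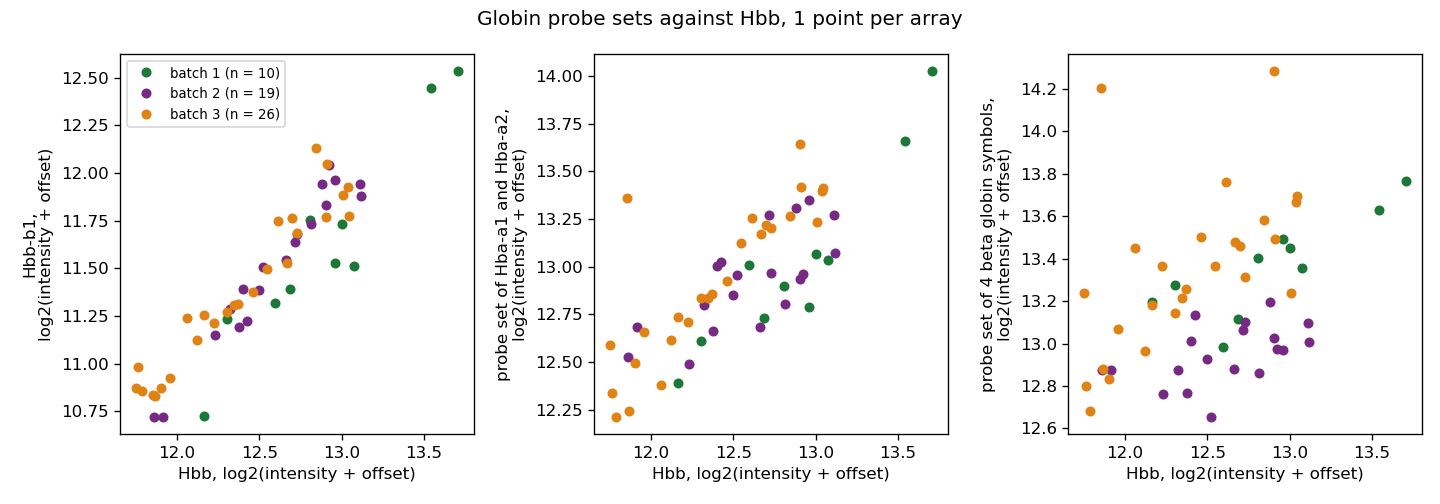
Each point is 1 array, coloured by batch, with log2(intensity + offset) of Hbb on the horizontal axes and of 3 other globin probe sets on the vertical axes. Hbb-b1 follows Hbb closely, the alpha globin probe set less so, and the probe set of 4 symbols has 2 points far above the rest, mature replicates 1 and 9.

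Hbe1, which encodes the embryonic epsilon-type chain, was dim and showed no stage difference. Immature arrays ranged from 35.3 to 147.8 with a median of 78.9, young arrays from 19.2 to 118.2 with 70.3, arrays without a stage word from 29.8 to 124.0 with 52.9, and mature arrays from 21.1 to 151.5 with 73.15. The groups overlapped almost entirely. The change from immature to mature kidney was -0.11 ± 0.20 (adjusted p = 0.7246), and the test over the 4 groups did not pass (adjusted p = 0.6504). On this scale the offset of 15.82 is a sizeable share of the values, which understates changes of so dim a probe set.

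Alas2, the first enzyme of haem synthesis in red cell precursors, was not called between stage words over all arrays, and its immature arrays lay apart between batches. Its medians were 820.5 in immature (343.9 to 1173.0), 588.35 in young (480.8 to 800.8), 585.2 without a stage word (419.6 to 835.0) and 571.0 in mature kidney (329.7 to 1341.7). The immature arrays split: 832.6 to 1173.0 on the 6 arrays of batch 1 and 343.9 to 820.5 on the 7 arrays of batch 2. These did not overlap, as was so for 19.3% of all probe sets, and among the members for Tfrc too. Between the batches of mature kidney no member was without overlap (4.07% of all probe sets were).

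No comparison between stage words called Alas2 over all arrays. Its change was -0.24 ± 0.16 in mature against immature kidney (adjusted p = 0.2778), and -0.07 ± 0.16 with batch as a block (adjusted p = 0.8340). Between arrays lacking a stage word and immature arrays the change was -0.35 ± 0.16 (adjusted p = 0.09891), and it passed without immature replicate 10 (adjusted p = 0.03132). With the block that change was 0.00 ± 0.16 (adjusted p = 0.9896). On the 12 arrays above the RT1-Bb threshold alone, Alas2 was lower in young than in immature kidney (-0.70 ± 0.18, adjusted p = 0.02458) and higher in mature than in young kidney (0.82 ± 0.18, adjusted p = 0.02504). On those arrays the young ones belong to batch 2 and the others in these 2 comparisons to batch 1.

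Alas2 went with Hbb in batch 3 alone of the 3 batches by the threshold. Both genes had their highest median there on young arrays, so the relation holds differences between descriptions. There r was 0.528 and rho 0.620 (n = 26, permutation test, adjusted p = 0.0374 and 0.0078 over the 30 relations computed), and r was 0.435 without the 2 arrays farthest from the median of Hbb. In batches 1 and 2 r was 0.461 (n = 10, permutation test, adjusted p = 0.569) and 0.217 (n = 19, permutation test, adjusted p = 0.654). Hbb-b1 with Alas2 in batch 3 passed by rho (0.530, adjusted p = 0.0327) and not by r (0.431, adjusted p = 0.162). Of the 30 relations, 5 passed by either measure, these 2 and Hbb with Hbb-b1 in each batch.

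Tfrc, the receptor that takes up transferrin-bound iron, had its lowest median in mature kidney over all arrays. Its intensity was 14.6, 187.9 and 294.1 (lowest, median and highest) on immature arrays, 58.9, 162.4 and 362.6 on young arrays, 18.0, 92.95 and 240.5 on arrays without a stage word and 3.5, 72.85 and 115.6 on mature arrays. Mature arrays kept to the lower range of the other groups without leaving it. The fall from immature to mature was 1.05 ± 0.32 on the log2 scale, or 2.07-fold (adjusted p = 0.01241), and from young to mature 1.29 ± 0.31, or 2.44-fold (adjusted p = 0.01794). Young and immature kidney did not differ past the threshold (0.24 ± 0.32, adjusted p = 0.6404).

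Much of the spread of Tfrc lay between batches. On immature arrays it read 14.6 to 179.5 in batch 1 and 187.9 to 294.1 in batch 2. With batch as a block the change from immature to mature was -0.53 ± 0.27 (adjusted p = 0.1957) and from young to mature -0.63 ± 0.24 (adjusted p = 0.1703), and neither passed. Mature kidney was not below the group without a stage word inside batch 3, where the medians were 78.75 and 60.85 (0.05 ± 0.28, adjusted p = 0.9547). With the block that difference was also 0.05 (adjusted p = 0.9380). The test over the 4 groups still passed under the block (adjusted p = 0.04072). The change from young to mature also did not pass without mature replicates 1 and 9, where Tfrc read 10.1 and 77.6 (-1.20 ± 0.32, adjusted p = 0.0508).

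In batch 2 Tfrc was lower in the group without a stage word, with ranges that overlapped those of the other groups. It read 187.9 to 294.1 on immature, 195.1 to 362.6 on young and 83.4 to 240.5 on the arrays without a stage word. The latter were lower than immature arrays by 0.57 ± 0.18 (adjusted p = 0.01567, with 43.4% of all probe sets called) and lower than young arrays by 0.64 ± 0.19 (adjusted p = 0.01703, with 27.1% called). Hbb and Hbb-b1 did not pass in these 2 comparisons (Hbb, adjusted p = 0.06654 and 0.2521).

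The 12 arrays above the RT1-Bb threshold and the 43 below it were set side by side without a test, because they were sorted by a measured value. For none of the 5 members did the sides lie wholly apart over all arrays, as 0.198% of all probe sets did. The median of Hbb was 6863.9 above and 5980.3 below, of Hbb-b1 2915.2 and 2670.0, of Hbe1 74.35 and 70.6, of Alas2 782.35 and 580.4, and of Tfrc 167.85 and 91.8. Alas2 and Tfrc were thus the members with the wider gaps, and 12.48% and 3.25% of all probe sets had medians at least as far apart. The side above the threshold holds no array of batch 3. Inside a description and batch, Alas2 had medians of 996.9 above and 1064.1 below (immature, batch 1), 576.9 and 558.6 (young, batch 2) and 720.7 and 714.1 (no stage word, batch 2). In these its gap was small or turned. On mature arrays of batch 1 the gap was wider, with a median of 968.5 on 3 arrays above and 493.8 on the 1 array below.

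Within descriptions the side made no uniform difference for the members. Tfrc had a median of 40.4 above and 208.8 below in immature kidney, but 241.3 and 130.0 in young kidney and 192.4 and 83.4 without a stage word. In mature kidney Alas2 read 901.3 to 1341.7 above and 329.7 to 991.3 below. None of the 5 members had sides that lay apart in any description, where 2.52% of all probe sets did in immature, 5.75% in young, 5.26% without a stage word and 5.08% in mature kidney. Inside batch 2, Hbb-b1 lay apart on young arrays, at 2486.6 to 2896.3 above and 1672.9 to 2323.3 below, as 17.1% of all probe sets did. Alas2 and Tfrc lay apart on mature arrays of batch 1, with only 1 array below, as 65.1% did.

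The change of Tfrc between stages differed between the sides. From immature to young kidney it was 2.02 above the threshold and -0.27 below, a difference of 2.29 ± 0.69 (interaction in limma, adjusted p = 0.04807, with 3.30% of all probe sets called). From immature to the group without a stage word it was 1.59 above and -1.02 below, a difference of 2.62 ± 0.69 (adjusted p = 0.04501, with 0.976% called). The immature arrays above the threshold all belong to batch 1 and the young and no-stage-word arrays above it to batch 2, so the changes above the threshold are also changes of batch. Inside a batch the sides lay closer for immature and young kidney. The mean log2 value of Tfrc was 6.12 above and 6.37 below on immature arrays of batch 1, 8.14 above and 7.95 below on young arrays of batch 2, and 7.71 above and 7.11 below on arrays of batch 2 without a stage word (3 arrays each). On immature arrays below the threshold it was 6.37 in batch 1 and 7.98 in batch 2. No other member passed in any of the 6 pairs of descriptions, and Tfrc passed in no other pair.

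A further alpha globin gene, Hba-a3 (rc_AI178971_at), a member of the list of other globins, was singled out here after its values were seen. It did separate the sides in immature, no-stage-word and mature kidney. It read 368.3 to 550.3 above and 55.3 to 149.3 below in immature kidney, 228.3 to 310.9 and 26.7 to 224.5 without a stage word, and 279.6 to 528.3 and 39.8 to 231.1 in mature kidney. In young kidney the sides overlapped over all arrays but not inside batch 2, where 3 arrays above read 153.8 to 213.4 and 3 below 46.0 to 100.4, as was so for 17.1% of all probe sets. Over all arrays the medians were 282.7 above and 96.7 below, and the sides overlapped, at 153.8 to 550.3 and 26.7 to 300.1. Its change from immature to mature kidney was -0.29 ± 0.34 (adjusted p = 0.5489).

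**Figure D4:**
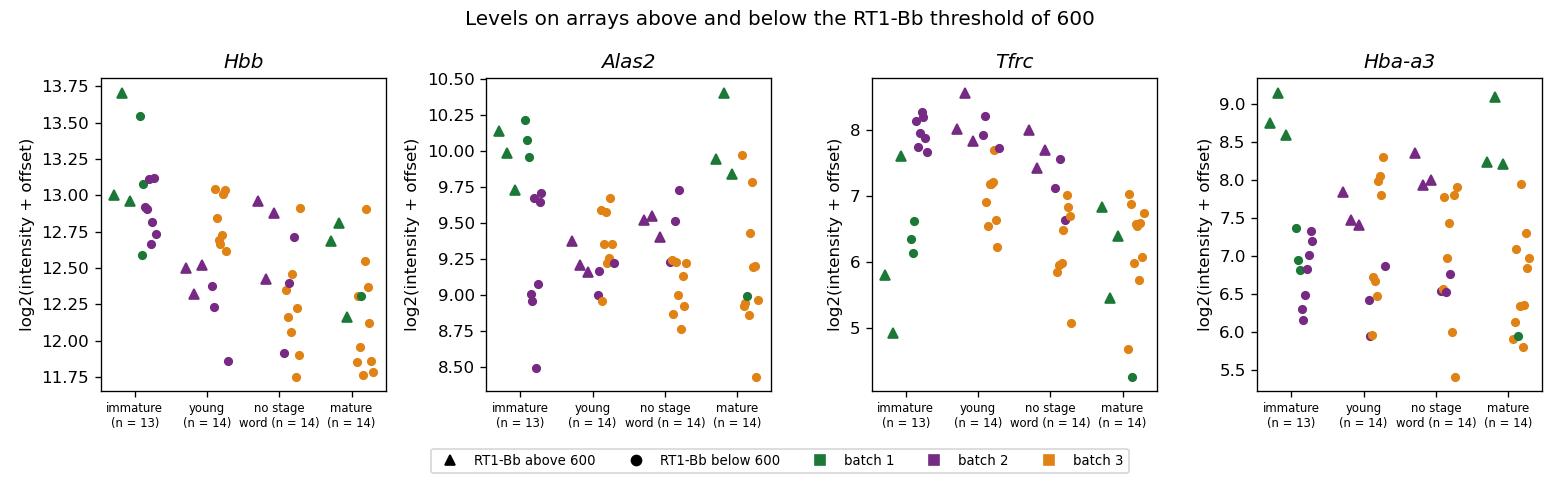
Each point is 1 array, a triangle where RT1-Bb was above 600 and a circle where it was below, coloured by batch, with log2(intensity + offset) on the vertical axis. The triangles lie among the circles for Hbb, Alas2 and Tfrc and at the top for Hba-a3 in immature, no-stage-word and mature kidney.

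Genes whose pattern was most like each member were taken by Pearson's r over the 55 arrays, and again over what remained after the mean of each description and batch was removed. They are a description of probe sets that share arrays and batches. Hbb was closest to Plagl1, a zinc finger transcription factor (0.72, and 0.50 after removal), then to the type I collagen genes Col1a2 (0.62) and Col1a1 (0.60), Ybx3 (0.59) and H2ax (0.55). After removal Mylk2 (0.48), Ddt (0.48), Alad (0.47) and Scaf4 (0.44) followed Plagl1. Alad encodes the second enzyme of haem synthesis, and its r with Hbb inside whole batches was -0.21, 0.11 and 0.32. Hbb-b1 was closest to Plagl1 (0.60), Zfp111 (0.51), Col1a2 (0.50), Rps3 (0.48) and Col1a1 (0.46), and after removal to Ddt (0.54), Mif (0.52), Mylk2 (0.50), Scaf4 (0.48) and Efna5 (0.47).

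Tfrc was closest to Slc12a1, the sodium-potassium-chloride cotransporter of the thick ascending limb (0.78), and to Ireb2 (0.78). Ireb2 encodes iron regulatory protein 2, known to bind and protect Tfrc mRNA when iron is short. Acadsb, Jtb and Ndufs1 followed (each 0.74). After removal of group and batch means Ireb2 again ranked as number 2 (0.65), after Slco1a3 (0.66) and before Hnmt (0.65), Acsl3 (0.64) and Cdc42bpb (0.64). Ireb2 and Tfrc had r = 0.557 in batch 1, 0.782 in batch 2 and 0.411 in batch 3 (n = 10, 19 and 26). Ireb2 read 491.9 to 597.8 on immature and 402.8 to 511.8 on young arrays of batch 2, above every array of batches 1 (17.2 to 203.9) and 3 (67.8 to 289.1). The 6 arrays of batch 2 without a stage word read 117.1 to 262.1, inside the range of batch 3. Ireb2 itself did not pass between mature and immature kidney (-0.63 ± 0.30, adjusted p = 0.111).

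**Figure D5:**
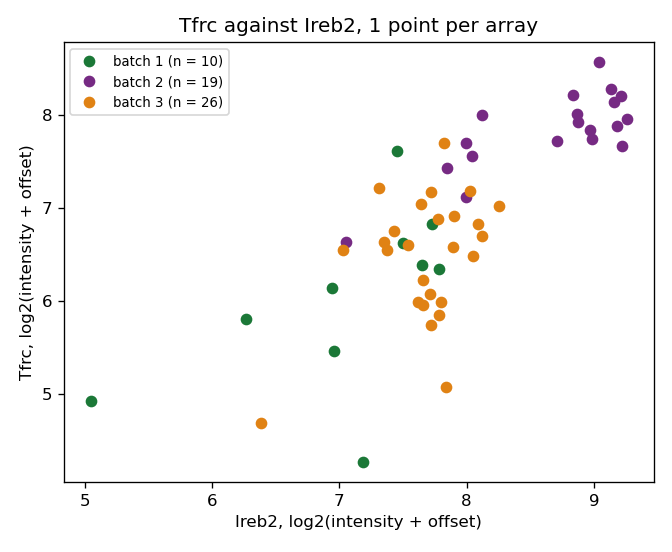
Each point is 1 array, coloured by batch, with log2(intensity + offset) of Ireb2 on the horizontal axis and of Tfrc on the vertical axis. The immature and young arrays of batch 2 lie at the upper right, its 6 arrays without a stage word lie among the other batches in Ireb2, and r inside the batches was 0.557, 0.782 and 0.411.

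Alas2 was closest to Stk10 (0.66), Anapc5 (0.66), Rilpl2 (0.66), Eif4e2 (0.65) and Psmd11 (0.65), and after removal to Adcyap1 (0.60), Tmem255b (0.58), Gpc1 (0.57), Dlat (0.57) and Sult5a1 (0.56). Hbe1 was closest to Gtf2f2 (0.49), Drd1 (0.48), Stmp1 (0.46), Ndufa8 (0.46) and Mstn (0.43), and after removal to Acvr2a (0.55), Mstn (0.54), Drd1 (0.52), Dync2h1 (0.51) and Jak2 (0.50). The 2 lists of Alas2 shared no gene.

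The other haem and iron genes called between mature and immature kidney moved in both directions, in a comparison where 24.4% of all probe sets were called. The median log2 change of all 3835 named genes was 0.04 in this comparison. Of 4 other haem synthesis genes measured, Alad alone was called. It rose by 0.40 ± 0.11 (adjusted p = 0.00454, and 0.00705 with batch as a block), opposite in sign to Hbb. Alas1, the housekeeping counterpart of Alas2, was at -0.12 ± 0.19 (adjusted p = 0.666) but rose by 0.47 with the block (adjusted p = 0.0311). Ppox (-0.21) and Urod (0.02) did not pass. The list's median was -0.05.

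Of 7 genes of haem breakdown and scavenging 0 passed, against 24.4% of all probe sets. Their median was -0.06, with Lrp2 at 0.25, Cubn at -0.18 and Hp, haptoglobin, at 0.22. At an unadjusted p under 0.05, 1 of the 7 passed, Lrp2. Hpx, the haem carrier haemopexin, was at -0.29 (adjusted p = 0.158) and fell by 0.49 with the block (adjusted p = 0.0376). Of 8 genes of iron uptake, storage and regulation Slc11a2, the divalent metal transporter, was lower (-0.59 ± 0.17, adjusted p = 0.00766), a call lost once batch was a block (adjusted p = 0.212). Lcn2 (0.40), Ireb2 (-0.63) and Slc40a1, the iron exporter (-0.06), did not pass, and the median was -0.00. Of the list of other globins, Hba-a3 alone was tested. Outside that list, the probe set X56327cds_i_at, named for Hbe2 alone, changed by 0.17 ± 0.21 (limma, adjusted p = 0.5665).

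Other red cell markers were called about as often as all probe sets, 2 of 8 against 24.4%. Of the 8, 1 rose, Pklr, the pyruvate kinase of red cells and liver (0.56 ± 0.18, adjusted p = 0.0203), and 1 fell, Car2, a carbonic anhydrase that kidney also makes (-0.45 ± 0.12, adjusted p = 0.00405). With batch as a block 1 of the 8 was called higher and 0 lower, so the fall of Car2 was no longer called. Rhag (0.34) and Rhd (0.36), red cell membrane genes, did not pass, and the list's median was 0.32. The summed intensity of the 8 ranged from 5184.3 to 6142.3 on immature and from 4553.1 to 11215.4 on mature arrays. Such a sum gives bright genes the most weight, and a further gene of the 8 alone reached 6823.9 at its highest. Of 3 genes of red cell precursors tested, Tfrc and Alas2 are members, so the list adds Gata1 alone. Tfrc fell, a call lost with batch as a block, while Gata1, the erythroid transcription factor (0.29, adjusted p = 0.105), and Alas2 did not pass. The summed intensity of the 3 was 694.7 to 1341.0 on immature and 465.9 to 1483.6 on mature arrays. No gene of these lists read 0 on any array. In whole kidney fewer cells of a type and less RNA per cell cannot be told apart.

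Some genes of other cell types were called between the same 2 groups, where 24.4% of all probe sets were. Their part in the fall of Hbb was not tested. Of 7 genes of proliferating cells 4 fell, Top2a (-1.44), Cdk1 (-1.44), Pcna (-0.87) and Cdc20 (-0.69), and 0 rose. With batch as a block 3 of the 7 fell and 0 rose. The list's median was -0.69, with a summed intensity of 3325.7 to 5923.1 on immature and 2355.8 to 4614.3 on mature arrays. Of 6 leukocyte genes Cd4 (0.56) and Cd79b (0.93) rose and 0 fell, with a median of 0.33 and sums of 5300.0 to 9800.4 and 5454.1 to 20048.8, while Cd74 (0.37) and Cd8b (0.29) were not called. Cd74 alone reached 17235.8 at its highest, so it weighs most in these sums. In the fit that has batch as a block, Cd79b was at 0.32 (adjusted p = 0.575).

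Of 4 platelet genes 0 passed, with a median of 0.15 and Pf4 at 0.35, Vwf at 0.11, Itgb3 at 0.19 and Itga2b at -0.09. At an unadjusted p under 0.05, Pf4 alone of these 4 passed. Of 3 liver genes 0 passed, also unadjusted, with Apoa1 at 0.23, Ttr at -0.20, Alb at -0.11 and a median of -0.11. Of 10 kidney genes 2 rose, Slc22a6 (0.66), an organic anion transporter, and Slc12a3 (0.40), and 3 fell, Slc12a1 (-0.82), Aqp3 (-0.58) and Aqp2 (-0.44), with a median of 0.10. With batch as a block 1 of the 10 rose and 3 fell. The summed intensity of the 10 ranged from 31371.7 to 57190.9 on immature and from 26383.9 to 77704.2 on mature arrays.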

How the data were processed

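The values are the intensities the authors deposited for 8799 probe sets on each of 55 arrays, on a linear scale as the values show. For summarisation and scaling, the software is not given in the sources used here. Trimmed means (2%) of 500.2 to 500.7 showed that arrays were already scaled, which was kept. After negatives became 0, log2 was taken with an offset of 15.82, which is 0.1 of the median value. Control probe sets and those under the 25th percentile of mean log2 value were left out, leaving 6555. A fit of all arrays was made in limma 3.58.1 (R 4.3.3; 4 groups, 6 contrasts, 2-sided), with Benjamini-Hochberg adjustment over all probe sets and a threshold of 0.05. Batches came from Ward clustering of 42 control probe sets cut into 3, chosen after seeing the data. Alternatives changed the scaling, offset, filter, array weights, blocks and arrays. The fit was tested on simulated data. Correlations used 100000 permutations, 2-sided (scipy 1.17.1). Figures used matplotlib 3.10.9 under Python 3.11.15. Symbols came from the platform annotation, updated through RefSeq (GRCr8) for 6994 probe sets.

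The members and lists were chosen with earlier results of these data known. The text names every member, from each list up to 4 genes ranked by p (mature against immature), and the 5 genes closest to each member by either measure. The number of arrays limits the precision. No signal over background was used here.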

Additional observations from a re-analysis of the deposited data

Results flagged for a closer look

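Several results stood out because the same contrast gave different answers in different sets of arrays. The change of Tfrc from immature to young kidney differed by 2.29 on the log2 scale between arrays above and below the RT1-Bb threshold (limma, adjusted p = 0.04807). From immature kidney to the group without a stage word it differed by 2.62 (adjusted p = 0.04501). In both cases the arrays above the threshold changed batch along with the description. Below the threshold, immature arrays had a mean log2 value of 6.37 in batch 1 and 7.98 in batch 2. Above it the 3 immature arrays read 14.6, 40.4 and 179.5. The difference between the group without a stage word and young kidney differed between batches 2 and 3 by 0.85 for Hbb (adjusted p = 0.02124), by 0.80 for Hbb-b1 (adjusted p = 0.04592) and by 0.63 for Alas2 (adjusted p = 0.01162). For Hbb the young arrays are those that lay apart between the batches, at 3704.9 to 5873.3 and 6264.2 to 8435.1. Single arrays were not tested as outliers. Each description held more than 10 arrays, but the Tfrc changes above the threshold rest on 3 arrays of each description.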

How the results depend on the processing

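Of the 5 members, 3 were called between mature and immature kidney over all arrays, but 0 inside batch 1 and 0 on the arrays above the RT1-Bb threshold alone, which are 3 and 3. On the latter Tfrc was higher in mature kidney (0.11, adjusted p = 0.9317), the single called change that turned its sign, on arrays all of batch 1. Between young and immature kidney 1 was called. The count was 0 with batch as a block, with batch and side as blocks, with the block and without the 2 arrays of high GAPDH ratio, and on arrays below the threshold, and 0 to 1 when each array was left out in turn. It was 2 with array weights and inside batch 2, Hbb and Hbb-b1 in both, and 2 on arrays above the threshold, where these were Alas2 (-0.70) and Tfrc (2.02). For arrays lacking a stage word against immature kidney, 2 were called, but 1 inside batch 2 and 0 on arrays above the threshold. Between mature and young kidney 1 was called, but 0 with batch as a block, with batch and side as blocks, on arrays below the threshold, without the 2 arrays of high GAPDH ratio, and with the block and without them. It was 2 inside batch 3, with or without those 2 arrays, where Hbb and Hbb-b1 passed in place of Tfrc, and on arrays above the threshold the 1 call was Alas2 (0.82). For arrays lacking a stage word against young ones 0 were called, but 1 with array weights and 1 inside batch 2, Tfrc in both. The cause of these changes was not tested beyond the fewer arrays that some settings hold. The other 94 counts kept within 1.5 times the main one, a rule that takes 2 calls in place of 3 as kept. Between mature and immature kidney with batch as a block, Tfrc was no longer called, while Hbb and Hbb-b1 were. The falls of Hbb and Hbb-b1 between immature and mature kidney passed with each array left out (adjusted p of at most 0.0001338 and 0.001714). The settings with both blocks or with the block and fewer arrays, and those inside batch 3 without 2 arrays, were added after seeing the data. No paired analysis was possible because the labels give groups no shared replicate numbers. Dim probe sets such as Hbe1 and Tfrc limit what can be read from small changes.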
